A study of Drosophila melanogaster with 2 samples.

Results

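Binding of the Drosophila melanogaster protein CG17568, which is predicted to have zinc fingers, was mapped between genes in whole embryos. The sites were the summits of the authors' optimal peak list that lay inside no annotated gene and more than 500 bp from the transcription start site (TSS) of any gene. There were 418 such summits, called members below, among 3396 summits in the list (12.3%, Wilson 95% interval 11.2 to 13.5%). The embryos were of mixed sex, aged 0 to 20 h, and came from a transgenic line that stably carries CG17568 fused to GFP at its C terminus. There was 1 group with 2 biological replicates and no other condition. The labels conflict: the assay title and the antibody entry describe a ChIP of CG17568, but the free text of both samples speaks of input. Both were read as ChIP samples, and every value below holds only under that reading. The optimal list was made with the irreproducible discovery rate (IDR), a procedure that compares peak ranks between replicates. It held exactly the 3396 peaks of highest signal score among the 30000 relaxed peaks called on the pooled replicates (11.3% of them). The members were therefore set against 5894 weaker pooled peaks of the same kind, intergenic and over 500 bp from a TSS, with no IDR summit within 500 bp. That is a comparison of strong with weak signal within 1 list. Sequencing depth is unknown, as peak lists carry no reads, and intervals cover counting error only, since peaks are not replicates. In whole embryos, strong binding in few cells and weak binding in many cannot be told apart.

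In the compact fly genome, the DNA between genes holds many enhancers, which control when and where neighbouring genes are transcribed, as well as insulators and silencing elements. Genes for developmental regulators often have long intergenic neighbours with several separate enhancers. Zinc finger proteins are a large family of DNA-binding proteins, and many of them recognise short sequences, often at promoters as well as at distant elements. A ChIP-seq peak marks DNA recovered with the protein, and its summit is the estimated centre. Sonicated fragments here were 200 to 800 bp long, so a summit is no exact contact site.

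The reference sequence at 5 of the 8 members of highest signal, those ranked 1, 4, 5, 7 and 8, is given first, to show what strongly recovered intergenic DNA looks like. The other 3 are not printed here. Each line holds the summit and 50 bp to either side on the plus strand, from the Release 6 genome, the same build as dm6, and is named by the gene of the nearest TSS. Capitals mark matches on either strand to GTAAANA, the letters shared by several of the leading 8-base sequences described later.
jp: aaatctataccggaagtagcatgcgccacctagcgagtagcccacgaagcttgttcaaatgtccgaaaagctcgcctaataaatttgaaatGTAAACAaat
CR45643: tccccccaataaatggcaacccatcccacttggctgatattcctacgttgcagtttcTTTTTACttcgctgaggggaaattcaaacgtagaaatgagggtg
sp3: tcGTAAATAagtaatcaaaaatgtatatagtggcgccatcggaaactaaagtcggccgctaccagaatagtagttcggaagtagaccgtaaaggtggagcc
CG11349: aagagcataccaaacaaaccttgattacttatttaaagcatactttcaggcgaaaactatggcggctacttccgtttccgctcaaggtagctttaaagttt
zfh2: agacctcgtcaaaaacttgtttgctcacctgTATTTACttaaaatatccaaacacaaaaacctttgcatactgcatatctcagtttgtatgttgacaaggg
The summits lay at chr2L:9567512 for jp, chr3R:16222515 for CR45643, chr3R:21520347 for sp3, chr3L:4475135 for CG11349 and chr4:497890 for zfh2. A match to GTAAANA was present at 5 of the 8 members of highest signal, 4 of them among the 5 shown, and was absent from the window at CG11349. Over all 418 members its share was 17.7%, and over the weaker peaks 11.4%. GTAAANA was chosen after its values were seen, so these counts are a description only. The 8-base sequence that led among IDR summits of other classes, GGTAAATA, was in none of the 5 windows shown. It was found at 10 members, of which the windows of the 5 with the highest signal follow, with capitals again marking the matches.
Hacd1: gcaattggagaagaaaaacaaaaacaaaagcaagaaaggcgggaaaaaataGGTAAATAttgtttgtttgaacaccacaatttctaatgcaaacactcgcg
D: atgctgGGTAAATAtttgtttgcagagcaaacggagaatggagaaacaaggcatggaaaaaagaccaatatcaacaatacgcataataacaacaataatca
ph-d: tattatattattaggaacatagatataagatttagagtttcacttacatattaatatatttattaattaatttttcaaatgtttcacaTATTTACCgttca
CG11878: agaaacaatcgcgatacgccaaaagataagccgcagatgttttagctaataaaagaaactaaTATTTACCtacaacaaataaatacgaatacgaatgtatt
CG9270: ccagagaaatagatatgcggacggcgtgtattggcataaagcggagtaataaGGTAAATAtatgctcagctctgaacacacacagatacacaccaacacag
These summits lay at chr2L:12004286 for Hacd1, chr3L:14174388 for D, chrX:2124255 for ph-d, chr3R:25275523 for CG11878 and chr2L:20935551 for CG9270. The match was centred 5 bp from the summit at Hacd1, 6 bp at CG9270 and 16 bp at CG11878, and 40 and 42 bp away at D and ph-d, to opposite sides.

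The strongest members lay beside genes of many kinds. The first, with a signal score of 1591, was 762 bp upstream of jp, which encodes junctophilin, a protein that holds the endoplasmic reticulum close to the plasma membrane. It ranked 12 in replicate 1 and 12 in replicate 2, and 13 in the pooled list. The next, on 2R, scored 1348 in the 36783 bp gap between Su(z)2, a Polycomb group gene, and CG13323, and ranked 24 in replicate 1 and 21 in replicate 2. The third scored 998 in the 1340 bp gap between blw, the alpha subunit of mitochondrial ATP synthase, and the mitotic cyclin gene CycB, with ranks 53 and 64 in replicates 1 and 2. These 3 summits were high in both replicates.

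A member of score 905 lay 880 bp upstream of the non-coding RNA gene CR45643, in the gap between the coding genes mtSSB and tara, and ranked 59 in replicate 1 and 112 in replicate 2. The tara gene encodes a regulator of the cell cycle and of transcription. Another of score 886 lay 581 bp upstream of sp3, beside the homeobox gene C15, with ranks 66 and 99 in replicates 1 and 2. On chromosome 4, a member of score 819 lay 3920 bp upstream of zfh2, which encodes a zinc finger homeodomain transcription factor, and ranked 75 in replicate 1 and 116 in replicate 2. All 25 members of highest signal were found among the 3396 highest peaks of each replicate, and their scores ran down to 484. The 25 included a summit 4317 bp upstream of slp2, in the gap between the forkhead pair-rule genes slp1 and slp2 (ranks 262 in replicate 1 and 260 in replicate 2). They also included a summit of score 487 in the gap after SoxN, a neural Sox factor gene, and one of score 583 that lay 3340 bp upstream of foxo, the forkhead factor of insulin signalling. Others lay beside Aldh-III and wech, CG11349, COX7AL2 and CG31668, Sol1 and Cyp9f2, corto and CG43131, CG43131 and RabGGTa, Atg13 and stck, Inx2 and cm, CG13321 and Psc, CR45303 and CR45693, and CG8519 and ple. The remainder were 1 summit each beside CR45643 and Hacd1 and 3 in the region before chinmo, described with the clusters.

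As a group the members had scores close to those of IDR summits inside genes and less often the highest scores than promoter summits. Their scores ran from 127 to 1591 with a median of 185, against 184 for IDR summits inside genes and 199 for those within 500 bp of a TSS. The 849 IDR summits of highest signal held 78 members (18.7% of members), against 318 of the 1531 summits inside genes (20.8%) and 453 of the 1447 promoter summits (31.3%). The member share was below the promoter share by 12.6 percentage points (Newcombe 95% interval of members minus promoter summits -16.9 to -8.00), while the interval against summits inside genes included 0 (-6.15 to 2.36). Pooled peaks of the intergenic class were also the least often in the IDR list. Members made up 6.62% of the class (interval 6.03 to 7.26%), against 9.31% for summits inside genes (8.88 to 9.77%) and 22.2% for promoter summits (21.2 to 23.3%). Each class here was its IDR summits and weaker peaks, so other pooled peaks within 500 bp of an IDR summit were not counted.

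Members lay closer to genes than the weaker peaks did. Their median distance to the nearest TSS was 2520 bp, against 3417 bp for weaker peaks, and the highest was 37212 bp, against 56420 bp. A distance over 500 and up to 1000 bp was seen for 86 members (20.6%) and 778 weaker peaks (13.2%), a difference of 7.37 percentage points (3.67 to 11.6). More than 5 kb from any TSS were 110 members (26.3%, 22.3 to 30.7%) and 2178 weaker peaks (37.0%, 35.7 to 38.2%), a difference of -10.6 points (-14.8 to -6.05). Against only the 532 weaker peaks of the class whose signal ranked next below the IDR list, the difference was -4.89 points (-10.6 to 0.938), an interval that includes 0.

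The gaps that members occupied were also shorter. The median length between the flanking genes was 9826 bp for members and 13120 bp for weaker peaks. Sequence that satisfied the rule made up 27.2% of the 6 chromosome arms, or 36463641 bp, and held 11.5 members and 162 weaker peaks per Mb. The density of members was 30.4 per Mb at the nearest distances, 15.7 per Mb at over 2 and up to 5 kb, and 1.26 per Mb beyond 20 kb. For weaker peaks it was 275, 205 and 27.3 per Mb at the same distances. Both thus thinned out with distance. Just inside the limit lay the summits 503 bp from Hsc70-3, 505 bp from CR44828 and 507 bp from CG42571, with scores of 290, 172 and 152. Just outside it lay those 497 bp from a tRNA:Ile gene, 476 bp from foxo and 473 bp from Sqor, with scores of 291, 165 and 139.

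**Figure D1:**
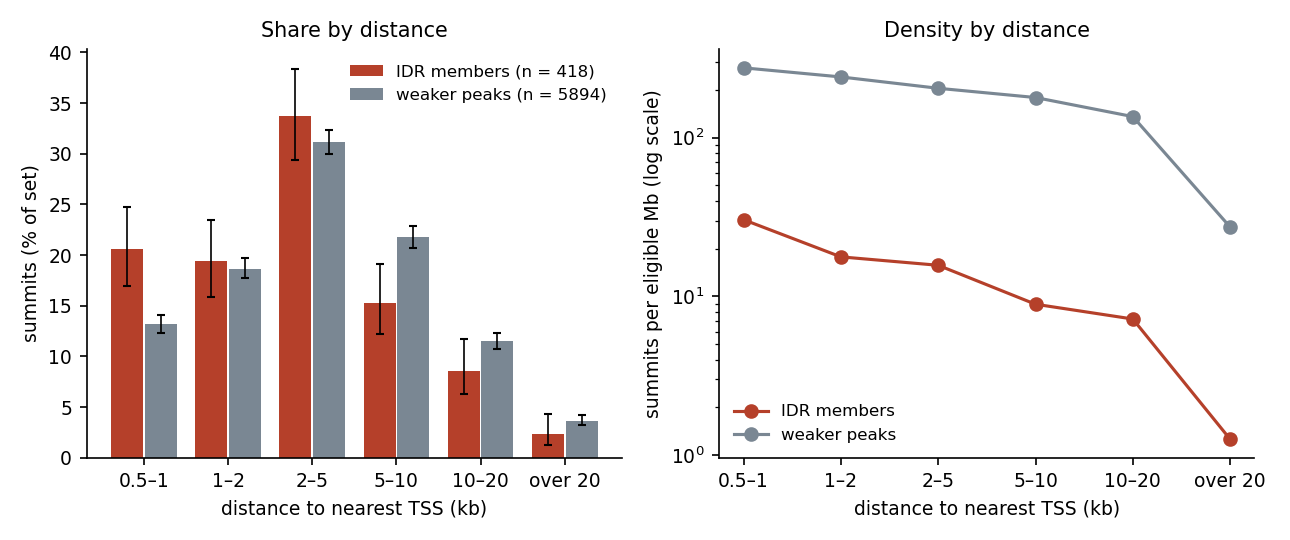
Distance of intergenic summits to the nearest TSS. Left, the share of 418 members (red) and 5894 weaker peaks (grey) in each distance range, with Wilson 95% intervals; right, summits per Mb of eligible sequence on a log axis. Members took the larger share in the nearest range (20.6% against 13.2%), and both densities were lowest beyond 20 kb.

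Members lay upstream of the nearest TSS more often than weaker peaks did. The rule leaves out gene bodies, which favours upstream summits in both sets. The weaker peaks ranked next below the list were not compared in this respect. The summit was upstream of the nearest TSS for 269 members (64.4%) and 3442 weaker peaks (58.4%), a difference of 5.96 percentage points (1.09 to 10.6). The nearest TSS belonged to a protein-coding gene for 66.0% of members and 64.6% of weaker peaks. A non-coding RNA gene flanked 51.2% of members and 52.1% of weaker peaks, a difference whose interval includes 0 (-5.89 to 3.99). Between protein-coding genes that start away from each other lay 143 members (34.2%) and 1768 weaker peaks (30.0%), a difference of 4.21 points (-0.33 to 9.03).

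Bound promoters were somewhat more common next to members. An IDR summit lay within 500 bp of a TSS of the nearest gene for 71 members (17.0%, 13.7 to 20.9%) and 698 weaker peaks (11.8%). The difference was 5.14 percentage points (1.74 to 9.12), but only 0.820 points (-3.89 to 5.67) against the weaker peaks ranked next below the list. Among the 1698 highest IDR summits the share of members was 21.7%. At least 1 of the genes flanking the gap had a bound promoter for 127 members (30.4%) and 1312 weaker peaks (22.3%).

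The members were clustered. Another IDR summit of any class lay within 5 kb of 215 members (51.4%, 46.7 to 56.2%), against 1594 weaker peaks with an IDR summit that near (27.0%, 25.9 to 28.2%), a difference of 24.4 percentage points (19.5 to 29.3). Because the weaker peaks were chosen with no IDR summit within 500 bp, the 19 members that had one were also left out, an alternative chosen after the data were seen. The member share was then 49.1% and the difference 22.1 points (17.1 to 27.1). Against the weaker peaks ranked next below the list the difference was 14.4 points (8.05 to 20.6). That comparison kept the 19 members, which raises the member share, and it was not run without them. Over all IDR summits the share was 57.3%, so the clustering was not a feature of the intergenic summits alone. It was 60.9% for summits inside genes, which exceeded the members (members minus genic -9.51 points, -14.9 to -4.15), and 55.1% for promoter summits (-3.64 points, -9.06 to 1.76). The median distance to the nearest other IDR summit was 4660 bp for members and 13363 bp for weaker peaks. No other IDR summit lay within 50 kb of 29 members.

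When members within 5 kb of one another were joined, they formed 326 runs, of which 270 held a single member. The members lay in 311 gaps between neighbouring genes, and 64 of these gaps held 2 or more, with 171 members between them (40.9%). The 17 gaps between coding genes with 4 or more members held 81 members.

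The run with the most members had 8 summits over 9308 bp on 2L, from 12002984 to 12012291. It lay between Hacd1, a fatty acid elongation enzyme gene, and the non-coding gene CR44588, with 4 members on either side of Rh5, which encodes a rhodopsin of the eye. The highest of the 8 had a score of 532 and ranked 168 in replicate 1 and 386 in replicate 2. The lowest had a score of 146 and ranked 11850 in replicate 1 and 1402 in replicate 2. The next run had 6 summits over 15549 bp in the 20910 bp gap between the non-coding genes CR44603 and CR45695, before chinmo, which encodes a BTB zinc finger factor of neuronal temporal identity. Its highest summits scored 732, 602 and 457, with ranks 105, 184 and 284 in replicate 1 and 142, 173 and 391 in replicate 2. Including 2 more summits beyond CR45695, the gap between the coding genes RFeSP and chinmo held 8 members. The strong summits of this region were high in both replicates, while its weakest member scored 131 and ranked 1960 in replicate 1 and 5440 in replicate 2.

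**Figure D2:**
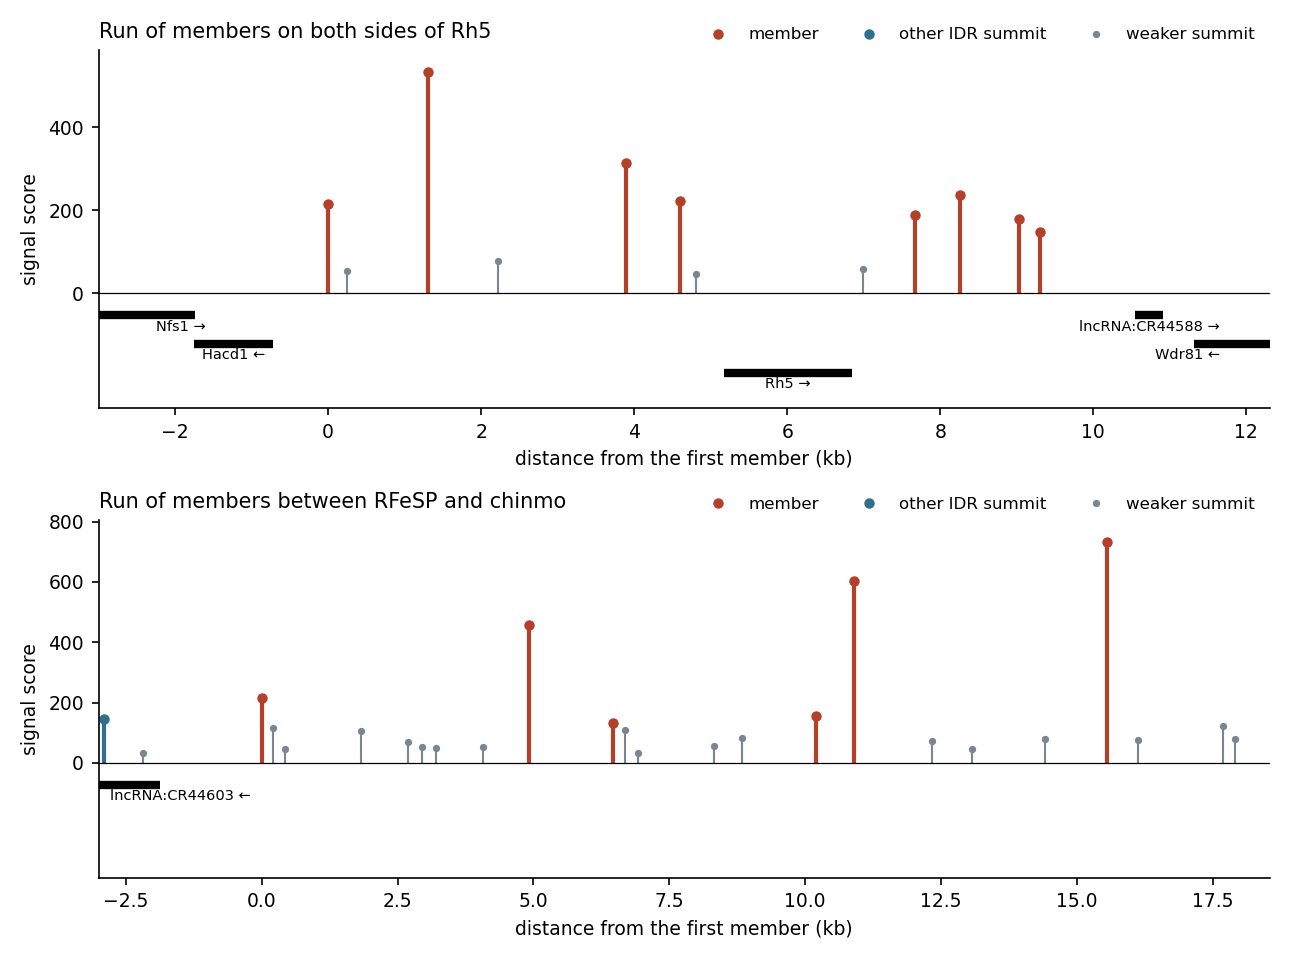
The runs with the most members, between Hacd1 and CR44588 on both sides of Rh5 (top) and before chinmo (bottom). Stems give the signal score of each pooled summit by its distance from the first member in kb (red, members; blue, other IDR summits; grey, summits below the IDR list), and black bars are genes with arrows for their strand. In the top run 8 members stood among 4 weaker summits, and in the bottom run 6 members reached scores up to 732.

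Several other gaps held many weaker members. The 75047 bp gap between NijA, which encodes the cell-surface protein Ninjurin A, and CG43245 held 7 members with scores of 131 to 315. Of the 5 members farthest from any TSS, 4 were in that gap, at 37212, 36649, 34519 and 33555 bp, and the other lay 33873 bp from the POU factor gene vvl. The gap between scyl, which encodes an inhibitor of TOR signalling, and CR44720 held 6 members with scores of 144 to 232. The gap between CR44363 and CG7560 held 5, with scores of 143 to 389. In all, 6 gaps held exactly 4 members each, including those on either side of Rh5 described above. Also among the 6 were the gap between CG7484 and Crtc and that between exex, a homeobox gene of motor neurons, and RNaseX25.

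Agreement between replicates was close for members and for the whole list. A summit within 100 bp was among the 3396 highest peaks of both replicates for 280 members (67.0%, 62.3 to 71.3%), against 66.5% of all IDR summits. The share was 66.2% for summits inside genes and 66.6% for promoter summits, and the intervals of both differences from the members included 0 (-4.38 to 5.78 and -4.86 to 5.36 percentage points). It followed the signal. Among members split by score into 4 groups of nearly equal size, it held for 103 of 105 in the highest group (98.1%), 98 of 104 in the next (94.2%), 71 of 105 in the third (67.6%) and 8 of 104 in the lowest (7.69%). The lowest group had scores of 127 to 146, at the bottom of the IDR list. The pooled score comes from the same 2 replicates. A fall toward the end of the list is therefore built in and was not read further. Of the 418 members, 21 were in the upper 3396 of neither replicate. None of the 5894 weaker peaks was in that part of both replicates, which follows from their low pooled signal and was not read further.

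**Figure D3:**
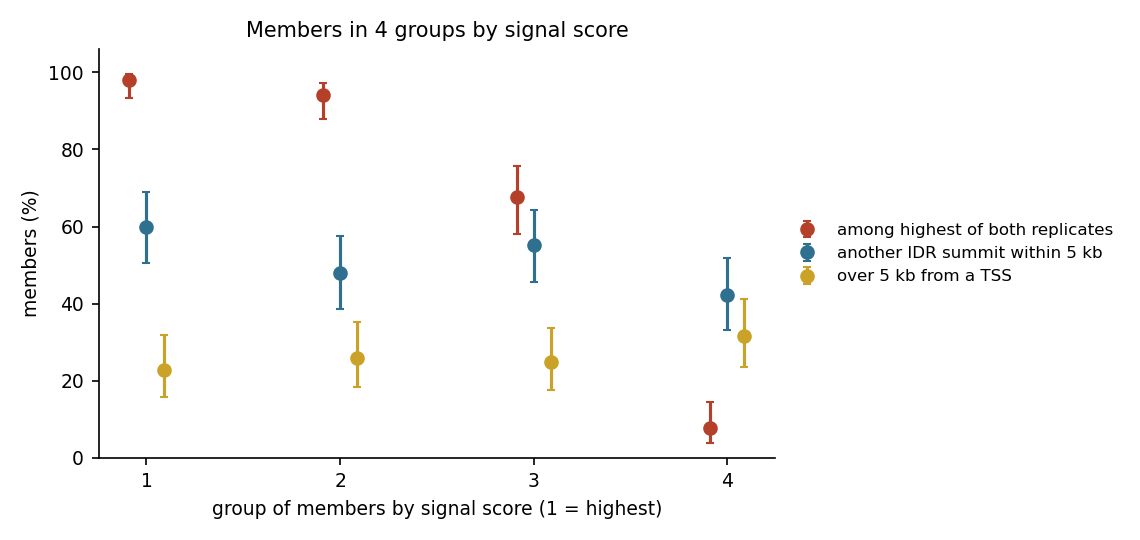
Members in 4 groups of nearly equal size by signal score, 1 being the highest. Points give the percent of members found among the 3396 highest peaks of both replicates (red), with another IDR summit within 5 kb (blue) and over 5 kb from a TSS (yellow), with Wilson 95% intervals. The red share was 98.1% in the highest group and 7.69% in the lowest, while the blue share lay between 42.3 and 60.0%. The fall of the red share is built in, as the score comes from the same replicates pooled.

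In the whole relaxed lists of 30000 peaks, 400 members (95.7%) had a match in both replicates, against 2007 weaker peaks (34.1%). Across the 400 members the replicate ranks had a Spearman rho of 0.644, and across the 2007 weaker peaks a rho of 0.403. Across the 3209 IDR summits of any class with a match in both, rho was 0.698. These are descriptions over peaks of the same 2 libraries. The IDR list holds the highest pooled signal from these libraries. A gap between members and weaker peaks is therefore built into the choice and was not read further. Replicate 1 gave the better rank for 202 of the 400 (50.5%). The matched summit was a median of 14 bp away in replicate 1 and 6.5 bp in replicate 2. A match within 100 bp was missing in replicate 1 for 14 members and in replicate 2 for 6, including 2 with none in either. A summit lay within 250 bp, past the match limit, for 13 of these 14 in replicate 1 and 5 of these 6 in replicate 2. The strongest of these was a summit of score 392 between CR45251 and CG6163 on 3L, with rank 517 in replicate 2 and the nearest summit of replicate 1 at 117 bp. That replicate 1 summit ranked 306 and was matched to another member 200 bp away. It was followed by one of score 236 beside ppk, with rank 1015 in replicate 2 and the nearest summit of replicate 1 at 104 bp, and by one of score 178 in the Rh5 run, with rank 4061 in replicate 1 and the nearest summit of replicate 2 at 258 bp.

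**Figure D4:**
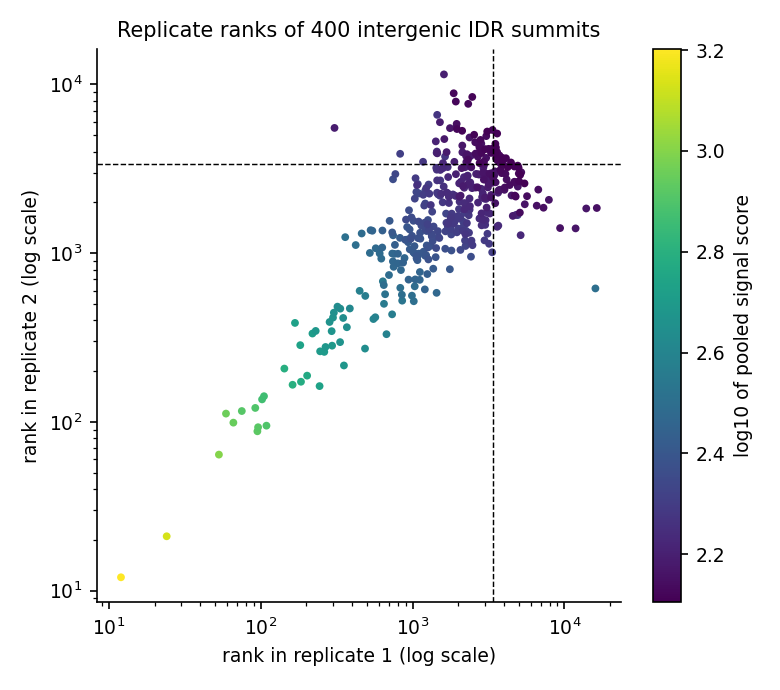
Rank of each of 400 members in replicate 1 (x axis) and replicate 2 (y axis), both on log scales, for members matched within 100 bp in both relaxed lists. Color gives log10 of the pooled signal score and dashed lines mark rank 3396. The strongest members lay near the diagonal, with ranks 12 and 12 at jp, and the scatter was widest around the dashed lines.

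Genes of several developmental classes flanked members, at shares close to those of weaker peaks. Each list was matched to the nearest protein-coding gene on either side of the summit. Segmentation genes flanked 24 members (5.74%) and 290 weaker peaks (4.92%), a difference of 0.821 percentage points (-1.12 to 3.53). Besides slp1 and slp2, they included the head gap gene ems (score 229), the T-box gene Doc2 (228) and the Wnt ligand gene wg (205). Neural transcription factor genes flanked 23 members (5.50%) and 314 weaker peaks (5.33%). Among these were summits 3920 bp from zfh2 (score 819), 16455 bp from SoxN (487) and 59274 bp from pros (274). Another (447) lay between Sox21b and D, which both encode Sox factors, 43064 bp from Sox21b and 1222 bp from D. Mesoderm and muscle genes flanked 5 members and 97 weaker peaks, with scores of 256 beside mid, 154 beside Act57B, 147 beside bin and 137 beside slou. Signalling genes flanked 7 members (1.67%) and 148 weaker peaks (2.51%), among them a member of score 309 that lay 5298 bp from ptc, the Hedgehog receptor gene, and one of score 282 beside fz, the Frizzled receptor gene.

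Polycomb and Trithorax group genes, which keep developmental genes silent or active, flanked 7 members (1.67%, 0.814 to 3.42%) and 58 weaker peaks (0.984%, 0.762 to 1.27%). The difference was 0.691 percentage points (-0.217 to 2.45). The members included the summit 27428 bp from Su(z)2, a score of 497 in the gap before Psc and 2 more flanked by Psc. Also included were 2 summits 200 bp apart between ph-d and ph-p, which lay in the same peak interval. The last lay 1440 bp upstream of lola and 13157 bp from psq. The products of Psc, ph-d and ph-p belong to Polycomb repressive complex 1, and Su(z)2 is a paralogue of Psc. The ph-d summit of score 330 ranked 659 in replicate 1 and 571 in replicate 2, and its neighbour of score 209, whose sequence is given above, ranked 4921 and 1681 in replicates 1 and 2.

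The other lists had few members. Axon guidance and adhesion genes flanked 8 members and 202 weaker peaks (1.91 and 3.43%), chemoreceptor genes 7 and 161 (1.67 and 2.73%), ribosomal protein genes 3 and 47 (0.718 and 0.797%), nuclear receptor and ecdysone genes 2 and 48 (0.478 and 0.814%), insulator protein genes 1 and 3 (0.239 and 0.0509%), and Hox genes 1 and 37 (0.239 and 0.628%). The only Hox member was a summit of score 135, at 8300 bp from abd-A. For 11 of the 12 lists the interval of the difference included 0. The exception was the cuticle protein genes, the coat proteins of the larva and adult, which flanked 0 of 418 members (up to 0.911%) and 80 weaker peaks (1.36%), a difference of -1.36 points (-1.69 to -0.409). Those 80 weaker peaks lay beside only 35 cuticle genes. No correction was made for the 12 lists, and none was compared with the weaker peaks ranked next below the IDR list. Members of 1 gap share their flanking genes, so these counts are not independent.

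In sequence, a few short motifs had shares that differed between members and the whole set of weaker peaks, with limits given below. The 8-base sequence GGTAAATA, or TATTTACC on the other strand, was picked outside the intergenic class. Among 1443 8-mers at 1% or more of those IDR summits it had the highest odds (2.82), with 62 of 2978 IDR summits and 150 of 19968 weaker peaks. Within 50 bp of the summit it was present at 10 members (2.39%, 1.30 to 4.35%) and 46 intergenic weaker peaks (0.780%, 0.586 to 1.04%), a difference of 1.61 percentage points (0.494 to 3.58). Over all IDR summits its share was 2.12%. Of the 10 leading 8-mers, 9 were more common at members than at weaker peaks. They included GGTAAACA, at 5 members (1.20%) and 31 weaker peaks (0.526%), and ACCGGAAA, at 5 (1.20%) and 22 (0.373%). On either strand, 6 of the 10 leading 8-mers hold GTAAA, so the 10 are not separate observations. Each was at 10 members or fewer. Against the weaker peaks ranked next below the list the difference for GGTAAATA was 1.26 points (-0.439 to 3.31), and of the 10 members 5 were among the highest peaks of both replicates.

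The shorter GTAAANA was chosen after its values were seen, so its shares are a description only. It was present at 74 members (17.7%) and 673 weaker peaks (11.4%). In windows of the same width 300 bp to either side it was present in 8.97% for members and 9.03% for weaker peaks. It was present at 23.4% of IDR summits inside genes and 17.3% of promoter summits. The letters GTAAACA, which the pattern covers, are known as the core of forkhead factor sites. No factor can be read from such a match. Mean GC content of the windows was 34.6% for members and 36.6% for weaker peaks. In steps of 20 bp, GC content of members was 33.0% just past the summit and 42.2% at 290 bp. For weaker peaks it was 35.5 and 40.3%. The part of GC content in the motif shares, at summits or in the flanks, was not tested.

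**Figure D5:**
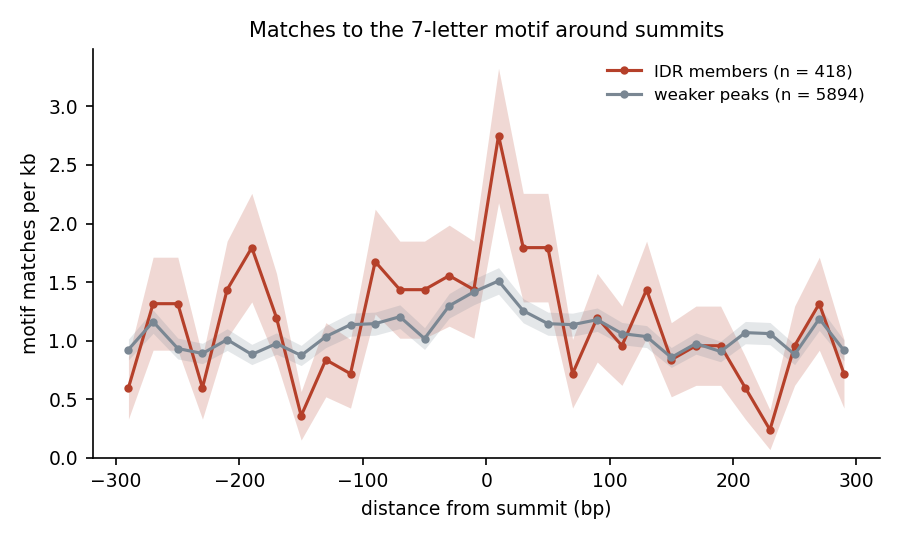
Matches to GTAAANA on either strand per kb of sequence, in steps of 20 bp around the summit, for 418 members (red) and 5894 weaker peaks (grey); bands are 1 counting error (square root of the count). Members reached 2.75 matches per kb in the step just past the summit, against 1.51 for weaker peaks. In the step just before the summit the values were 1.44 and 1.42.

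Of 16 known motifs, searched on both strands in the same windows, those of Zelda and the A tract had intervals of the difference that did not include 0. No correction was made for the 16 motifs searched. Neither motif was compared with the weaker peaks ranked next below the list. The Zelda sequence CAGGTAG, bound by the factor that opens the early embryonic genome, was at 5 members (1.20%) and 18 weaker peaks (0.305%), a difference of 0.891 points (0.184 to 2.47). A run of 8 A was at 31 members (7.42%) and 638 weaker peaks (10.8%), a difference of -3.41 points (-5.70 to -0.391). The GAGA factor sequence GAGAG was at 11.7% of members and 9.52% of weaker peaks, TATAAA at 19.1 and 18.8%, the homeobox sequence TAATTA at 10.8 and 9.14%, and TCAGTT of the initiator at 8.61 and 6.33%. CAGCTG was at 3.11 and 2.60%, AGATAAG of GATA factors at 2.15 and 1.31%, GCCATNTT of Pho at 1.91 and 2.12%, and AGNNGGCGC of CTCF at 1.44 and 1.05%. TGCATAC of Su(Hw) was at 1.20 and 1.48%, CCGGAAGT of Ets factors at 0.718 and 0.221%, GGTCACAC of M1BP at 0.239 and 0.136%, and CACGTG at 0.239 and 0.814%. TATCGATA of the DRE was at 0 of 418 members (up to 0.911%) and 0.424% of weaker peaks, and the BEAF-32 motif at none of either. Matches to TATAAA and the A tract can overlap, as can those to GGTAAATA and GTAAANA.

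Members were densest on chromosome 4 and sparsest on X, as were weaker peaks. Members per Mb of eligible sequence were 15.3 on 2L, 6.98 on 2R, 15.8 on 3L, 10.7 on 3R, 28.5 on chromosome 4 and 5.84 on X, with 7 members on chromosome 4. For weaker peaks the densities were 205, 115, 205, 147, 412 and 108 per Mb in the same order. The interval of the difference in arm share included 0 for each of the 6 arms. An annotated transposable element covered 2 members (0.478%) and 115 weaker peaks (1.95%), a difference of -1.47 percentage points (-1.99 to -0.182). The members were beside ed and del, with scores of 158 and 146.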

How the data were processed

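Chromatin from whole embryos was immunoprecipitated and sequenced in 2 replicates of 1 group. The sonicated fragments were 200 to 800 bp long, per the labels. The authors deposited peak lists on dm6 in narrowPeak format, per the text deposited with them: 30000 relaxed peaks for each replicate and for both pooled, and the IDR list made from these. The deposited lists give a signal score with no stated scale, used here only to rank peaks within a list, and the −log10 q-value and summit offset of each peak. Which aligner, peak caller and IDR cut-off were used is not stated in the sources at hand. A further input file has no stated role, and the control experiment was not analysed here.

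Genes came from Ensembl release 115 (BDGP6.54) without transposable elements, and sequences from the Release 6 genome. Nearest genes, distances and motifs were computed with Python 3.11.15, numpy 2.4.6 and pandas 2.3.3 and checked on simulated data. Shares have Wilson 95% intervals and differences Newcombe 95% intervals. Summits within 100 bp were matched between lists, the best-ranked summit within that distance being taken. The 8-mers were ranked by their odds at IDR summits against weaker peaks, both outside the intergenic class. Named were the 25 members of highest signal, the 5 gaps with most members (beyond these, ties), the 5 members farthest from a TSS, the 3 strongest without a match in a replicate, the 3 summits on either side of the 500 bp limit, and up to 4 genes per list. The members and the 12 gene lists were chosen with earlier results of these data known.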

Additional observations from a re-analysis of the deposited data

How the results depend on the processing

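The number of members was 203 among the 1698 highest IDR summits and within 1.5 times 418 in the other settings run. The share over 5 kb from a TSS was 20.9% with a 250 bp limit, 33.1% with a 1000 bp limit, 42.1% with protein-coding genes only and 21.9% with transposable elements counted as genes. The share near another IDR summit was 31.8% within 2 kb and 66.7% within 10 kb. The share found in both replicates was 97.0% among the 1698 highest, 60.0% with matches within 50 bp and 95.7% over the whole relaxed lists. It needs both replicates, so it has no value without either. The share whose nearest gene had a bound promoter was 34.0% with the 250 bp limit, where a summit can itself lie in the promoter window, and 21.7% among the 1698 highest. The share in divergent gaps was 29.5% with the 1000 bp limit. With at most 1 mismatch, the leading 8-mer was at 18.2% of members.

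Against the weaker peaks ranked next below the IDR list, 4 of 5 differences had intervals that included 0: -4.89 percentage points over 5 kb from a TSS, 1.26 for the 8-mer, 0.820 for bound promoters and 0.752 for divergent gaps. The 8-mer difference was 1.17 within 100 bp, also with an interval that included 0. The divergent-gap difference had an interval above 0 with the 250 bp limit (4.80), with 1 summit per run (5.47) and without replicate 2 (5.33). Its interval included 0 in the other settings, where it was as low as 1.08 with the 1000 bp limit, 1.53 among the 1698 highest and 2.81 without replicate 1. The causes were not tested. The clustering difference lay between 14.4 and 26.7 percentage points in every setting run, with intervals above 0. The lowest value, against the peaks ranked next below, kept the members with another IDR summit within 500 bp. No paired analysis was possible because there is 1 group of samples. The unknown depth limits what a missing match in a replicate can show.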
